A study of Homo sapiens with 24 samples.

Results

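Genomic imprinting marks a small number of genes according to the parent they were inherited from, so that only the paternal or only the maternal copy is expressed. Most of these genes lie in clusters. Each cluster is governed by a control element whose DNA methylation is set in the egg or the sperm and is then kept by the zinc finger proteins ZFP57 and ZNF445 and the DNA methyltransferase DNMT1. Many of these elements are CpG-rich promoters, in which the unmethylated copy carries trimethylation of lysine 4 of histone H3 (H3K4me3), the mark of active and poised start sites, and the methylated copy does not. Imprinted genes such as IGF2, GRB10, PLAGL1, GNAS and DLK1 act in growth and metabolism, and the 6q24, 11p15 and 20q13 domains are known for disorders of insulin secretion or hormone response.

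H3K4me3 was measured at the promoters of 38 imprinted genes from 16 domains in EndoC-βH3 cells, out of 62700 genes in the annotation. EndoC-βH3 is a single human beta-cell-like line, derived from fetal pancreas and immortalised with SV40 large T antigen and hTERT, transgenes that the cells can excise through a CreER recombinase. All cells carried this system. The series holds 4 non-senescent samples, which kept the transgenes, and 4 senescent samples, in which 4-hydroxytamoxifen given for 3 weeks activated the recombinase. The labels and the study's methods give the tamoxifen concentration in different units, so it is not stated here. Each sample held 500000 cells and was profiled by MINT-ChIP, in which digested chromatin is barcoded, pooled and then immunoprecipitated. The 16 samples for H3K27me3 and H3K9me3 were not analysed here.

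The value available for each H3K4me3 region was the authors' mean of the normalised read count over all samples, here the 8 of both states. It carries no value per sample, so no error, no order beyond error and no difference between senescent and non-senescent cells could be given, and the depth of each sample is unknown. Nor does it separate the parental copies. Every value in the following paragraphs is therefore a description without a test. The genes were a fixed list of known imprinted genes, coding and noncoding. For each gene all regions reaching within 2 kb of a GENCODE start site were taken, and the region with the highest mean count served as the promoter. Counts grow with the width of a region, so genes were compared by the mean normalised count per kb of region, called the level below.

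A promoter region was present for 32 of the 38 genes (84.2%), against 42.0% of all annotated genes, 75.3% of protein-coding genes and 38.2% of lncRNA genes. All 6 imprinted lncRNA genes had one, and so did 26 of the 32 protein-coding genes. The 32 genes shared 29 distinct promoter regions, because PEG10 and SGCE, PLAGL1 and HYMAI, and PEG3 and ZIM2 each used the same region. Counting further regions near other start sites, 79 regions were linked to the 38 genes, of 97545 regions in all. The genes nearest to the 2 kb limit were PEG3 (1027 bp) and ZIM2 (1024 bp) on the inside and RTL1 (2446 bp) and NNAT (2805 bp) on the outside. The beta-cell identity of the samples was visible at the same time. All 12 beta-cell marker genes had a promoter region, with a median level of 25.1 per kb. PTPRC, CDH5 and ALB, markers of immune, endothelial and liver cells, had none within 2 kb of a start. The region nearest to PTPRC lay just outside, at 2229 bp, with a level of 12.3 per kb. The 5 other markers of other cell types had a median level of 6.99 per kb, from 2.24 at PRSS1 to 15.3 at PECAM1, an endothelial and platelet gene. Among the beta-cell genes the lowest levels were 7.56 per kb at IAPP, 11.1 at ABCC8 and 14.003 at INS, all below that of PECAM1.

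The sequences of 8 promoters are shown because the CpG sites in them, printed in capitals, are the kind of position at which an imprint is written as DNA methylation, which was not measured here. They come from 8 domains with a germline control element at a promoter, and in each domain the window over the region with the highest count was taken among the RefSeq windows of such genes. The place of the element within a gene was not used in this choice, so a window need not lie in it. The PLAGL1 window lies in a region centred 55.6 kb upstream of the canonical start. The windows are RefSeq promoters of 300 bases that reach from upstream of a start site to just after it (GRCh38.p14), and those of PLAGL1 and GNAS lie in the second strongest region of their gene, since no RefSeq window overlapped the strongest.
PLAGL1, chr6:144064550-144064849, minus strand: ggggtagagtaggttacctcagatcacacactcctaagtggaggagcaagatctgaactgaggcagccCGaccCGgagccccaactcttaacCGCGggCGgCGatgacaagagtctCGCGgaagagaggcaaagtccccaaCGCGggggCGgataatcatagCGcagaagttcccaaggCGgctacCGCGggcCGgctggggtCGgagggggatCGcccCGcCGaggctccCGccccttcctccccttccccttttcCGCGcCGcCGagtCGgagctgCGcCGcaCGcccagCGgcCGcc
GNAS, chr20:58852731-58853030, plus strand: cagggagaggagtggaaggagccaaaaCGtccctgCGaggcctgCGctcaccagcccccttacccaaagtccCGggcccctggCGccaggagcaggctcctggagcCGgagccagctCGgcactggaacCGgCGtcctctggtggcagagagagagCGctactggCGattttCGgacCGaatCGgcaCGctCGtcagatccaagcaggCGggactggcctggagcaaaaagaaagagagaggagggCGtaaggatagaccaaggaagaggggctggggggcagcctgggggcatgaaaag
SNRPN, chr15:24954737-24955036, plus strand: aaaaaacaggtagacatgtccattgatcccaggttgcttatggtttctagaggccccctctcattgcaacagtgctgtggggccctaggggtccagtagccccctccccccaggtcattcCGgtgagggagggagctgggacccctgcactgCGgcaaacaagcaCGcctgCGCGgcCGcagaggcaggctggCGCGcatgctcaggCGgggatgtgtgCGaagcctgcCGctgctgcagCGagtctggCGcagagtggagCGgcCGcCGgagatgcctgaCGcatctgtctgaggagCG
MEST, chr7:130491835-130492134, plus strand: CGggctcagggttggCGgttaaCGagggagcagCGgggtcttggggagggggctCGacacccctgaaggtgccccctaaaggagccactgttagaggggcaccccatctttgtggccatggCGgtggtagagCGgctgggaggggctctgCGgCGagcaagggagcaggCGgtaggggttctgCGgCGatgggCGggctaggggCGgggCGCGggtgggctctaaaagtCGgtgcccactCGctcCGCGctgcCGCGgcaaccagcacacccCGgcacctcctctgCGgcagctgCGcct
NAP1L5, chr4:88697780-88698079, minus strand: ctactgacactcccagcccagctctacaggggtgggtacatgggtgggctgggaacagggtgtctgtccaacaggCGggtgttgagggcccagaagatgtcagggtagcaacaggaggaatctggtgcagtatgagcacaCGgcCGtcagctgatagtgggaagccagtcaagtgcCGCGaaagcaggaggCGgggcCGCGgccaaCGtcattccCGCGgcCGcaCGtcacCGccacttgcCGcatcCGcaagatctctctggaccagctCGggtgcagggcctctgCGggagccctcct
L3MBTL1, chr20:43514191-43514490, plus strand: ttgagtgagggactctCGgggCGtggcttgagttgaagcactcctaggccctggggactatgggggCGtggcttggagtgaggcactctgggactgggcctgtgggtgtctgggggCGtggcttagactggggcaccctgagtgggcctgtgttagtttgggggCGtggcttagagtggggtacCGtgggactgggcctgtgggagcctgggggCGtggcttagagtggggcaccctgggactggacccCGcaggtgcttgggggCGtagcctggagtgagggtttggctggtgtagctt
INPP5F, chr10:119819019-119819318, plus strand: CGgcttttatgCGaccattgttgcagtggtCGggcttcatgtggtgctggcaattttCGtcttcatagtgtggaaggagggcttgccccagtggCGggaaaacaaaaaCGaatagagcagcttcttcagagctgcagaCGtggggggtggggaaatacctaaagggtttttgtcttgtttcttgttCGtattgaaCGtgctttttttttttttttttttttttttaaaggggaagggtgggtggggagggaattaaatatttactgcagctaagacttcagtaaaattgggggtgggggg
DIRAS3, chr1:68050578-68050877, minus strand: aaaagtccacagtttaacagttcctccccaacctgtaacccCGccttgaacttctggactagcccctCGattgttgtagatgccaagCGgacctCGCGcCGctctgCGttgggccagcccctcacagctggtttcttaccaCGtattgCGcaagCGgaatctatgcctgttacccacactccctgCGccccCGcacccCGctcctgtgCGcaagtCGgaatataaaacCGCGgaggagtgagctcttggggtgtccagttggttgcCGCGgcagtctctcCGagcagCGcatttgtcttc

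These windows held between 9 CpG sites (L3MBTL1, INPP5F) and 31 (PLAGL1), against a median of 14 over all 35116 RefSeq promoters of that table and 18 over the 51 windows of the 22 imprinted genes found in it. The L3MBTL1 window repeats the same stretch around a CpG several times, and the INPP5F window carries its CpG sites in its upstream part.

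Taken as a group, imprinted promoters were marked about as strongly as the promoters of all genes with a region. Their median level was 15.9 per kb (from 2.24 to 38.4), and the median over all 26341 genes with a region was 17.0 per kb, with quartiles of 9.61 and 25.4. Of the 32 genes, 15 lay above the median of all genes, 6 lay above the upper quartile and 7 below the lower quartile. Protein-coding genes with a region had a higher median, 18.99 per kb, and 13 of the 32 lay above it. The 26 imprinted protein-coding genes with a region had a median of 17.3 per kb. Before division by width the median count was 46.7 against 37.9, with 17 of 32 genes above the median of all genes. The CpG ratio of the regions, the observed number of CpG sites over the number that their base composition would give, had a median of 0.537 against 0.540 over all 18774 promoter regions. It was 0.587 over the promoter regions of protein-coding genes.

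**Figure D1:**
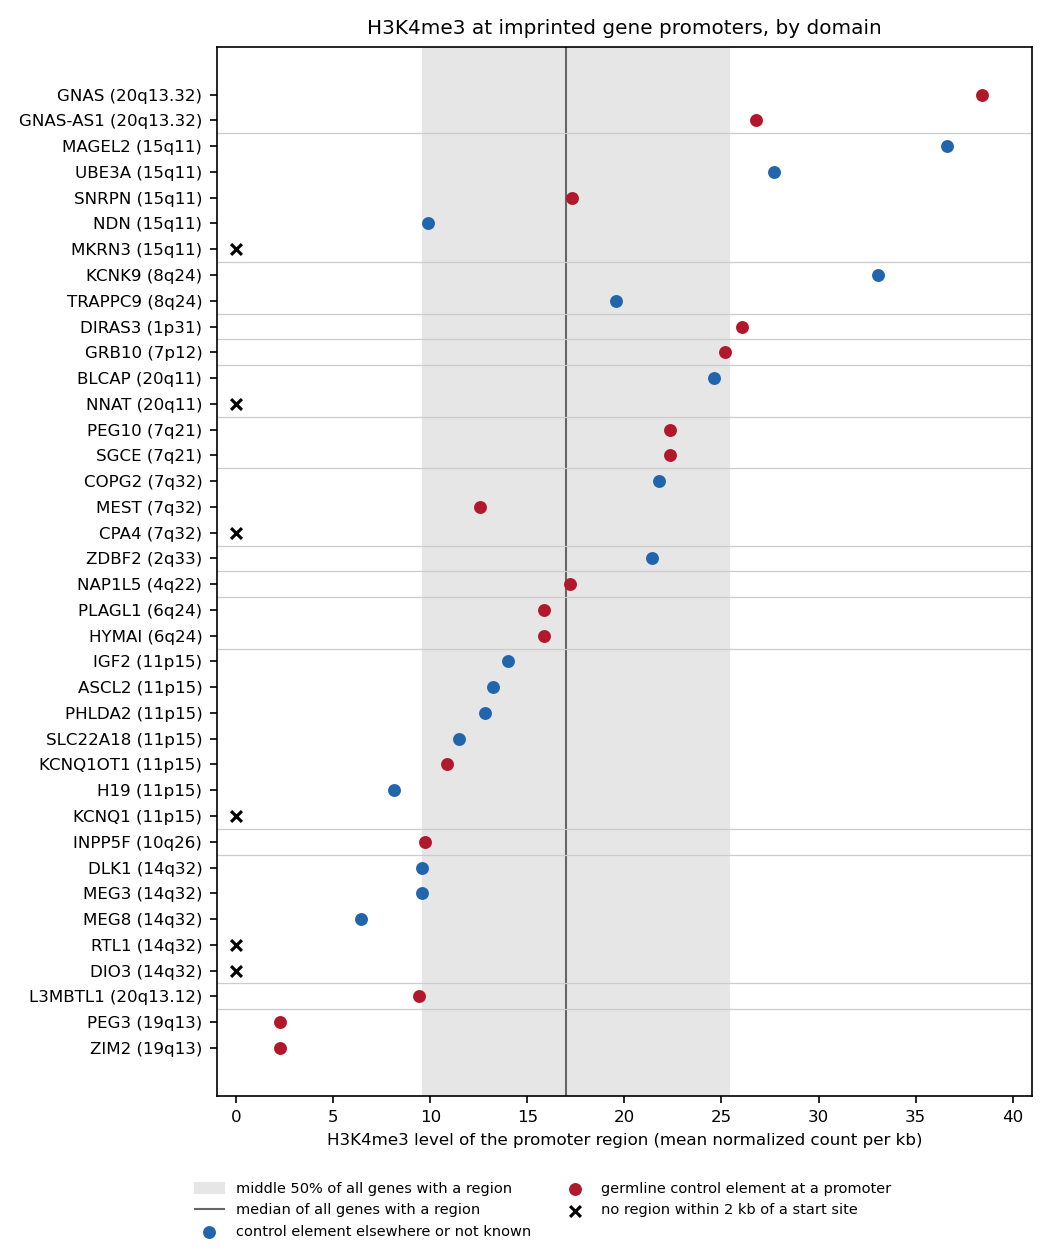
H3K4me3 level (mean normalized count per kb of the promoter region, 1 pooled value over 8 samples, hence no error bars) of 38 imprinted genes, grouped by domain in order of each domain's highest gene. The grey band spans the quartiles of all genes with a region (9.61 to 25.4) and the line their median (17.0). GNAS stands highest at 38.4, PEG3 and ZIM2 lowest at 2.24, and crosses mark the 6 genes without a region.

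The parental copy that is usually expressed went with differences in count and in region width more than in level. This class and the place of the control element were assigned from general knowledge and were not measured in these cells. Genes known for paternal expression had a region in 18 of 22 cases, with a median level of 15.9 per kb and a median count of 48.2. Of the 18, 11 passed the median count of all genes. The 18 genes had only 15 distinct regions, and the IGF2 value is that of a region over the start of INS. Genes known for maternal expression had a region in 7 of 9 cases, with a median level of 11.5 per kb. Their counts ran from 6.62 to 25.6, with a median of 11.1. Counts grow with width, and the median width was 1355 bp for the maternal and 3615 bp for the paternal genes. None of the 7 passed the median count of all genes. All of the 7 but KCNK9 lie at 14q32 or 11p15, so the class cannot be told apart from the domain. The 7 genes whose imprinting depends on the isoform or the tissue all had a region, with a median level of 24.6 per kb. Of these, 6 passed the median count of all genes. They include UBE3A (81.8 counts), which is expressed from the maternal copy in neurons. The result for the maternal class thus depends on how such genes were classed. A germline control element is known at a promoter of 17 of the genes, 16 of which had a region, with a median level of 16.5 per kb and a median width of 3766 bp. For the 21 others, 16 had a region, with a median level of 13.6 per kb and a median width of 1852 bp. The 16 genes with such an element had only 13 distinct regions, so shared regions count more than once. Each value is that of the strongest region of the gene, which need not lie at the element.

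**Figure D2:**
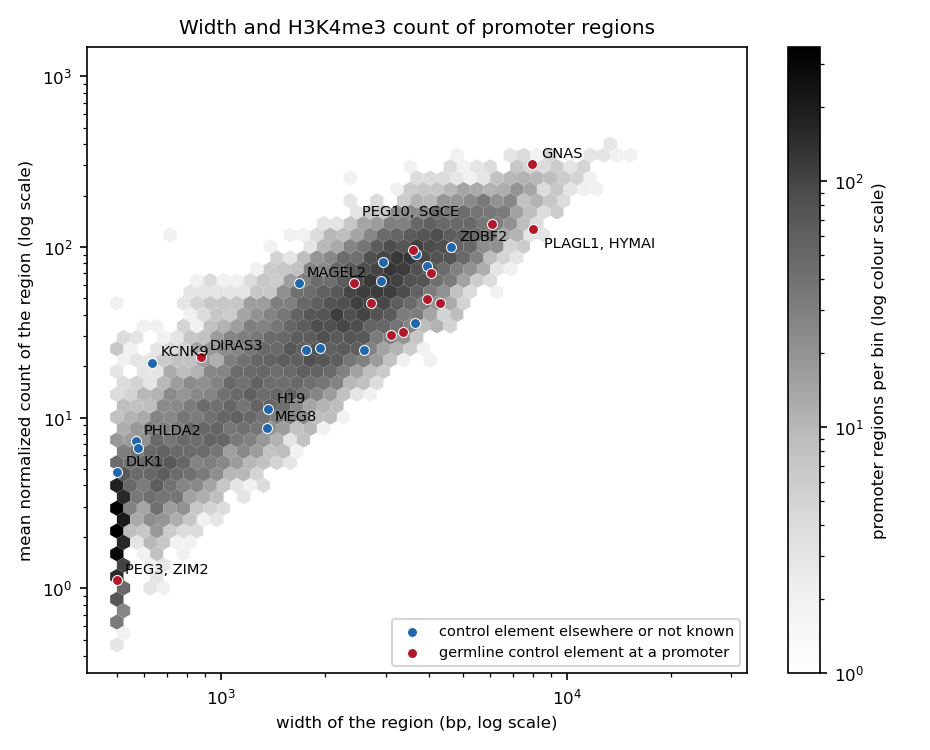
Width (bp) and mean normalized count of promoter regions, both on log scales. Grey hexagons count the promoter regions of all genes, and points are the 29 distinct regions of imprinted genes, coloured by whether a germline control element is known at a promoter of the gene. The PLAGL1 and HYMAI region (8007 bp), the GNAS region (7962 bp) and the PEG10 and SGCE region (6071 bp) are the 3 widest points, and PEG3 and ZIM2 lie at the lower left with a count of 1.12.

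The GNAS domain at 20q13.32 held the highest values. GNAS encodes the stimulatory G protein alpha subunit, which couples hormone receptors to cyclic AMP. The gene also starts from alternative promoters, some of which are methylated on the maternal copy. Its strongest region, on chromosome 20 from 58891802 to 58899764, had a mean count of 306 and a level of 38.4 per kb, at percentile 94.3 of all genes with a region, and lay over 9 annotated start sites. GNAS had 8 regions in all. The next had a mean count of 96.1 and a level of 26.8 per kb, was centred 40.1 kb upstream of the canonical start, and was also the promoter region of GNAS-AS1, the antisense RNA of the domain. The others had mean counts of 59.6, 49.1, 39.5, 23.99, 9.51 and 2.50. Regions linked to GNAS and GNAS-AS1 made up 83.9% of the summed counts of the domain.

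The Prader-Willi and Angelman domain at 15q11 was uneven. MAGEL2, which regulates ubiquitination on endosomes, had 1 region with a count of 61.4 and a level of 36.6 per kb (percentile 93.1), over its only start site. NDN, which encodes necdin, a growth suppressor of postmitotic neurons, lies next to it and had a lower level of 9.87 per kb over a wider region (3646 against 1677 bp), with a count of 36.0. MKRN3, a ubiquitin ligase that restrains puberty, had no region, and the nearest lay 62.5 kb away. SNRPN, a splicing protein gene whose promoter is part of the imprinting centre, had a count of 70.02 and a level of 17.3 per kb in a region of 4044 bp over 5 of its start sites. That region also served SNURF. The paternal cluster thus ranged from no region to percentile 93.1.

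UBE3A, a ubiquitin ligase expressed from the maternal copy in neurons, had 12 regions. The strongest, with a count of 81.8 and a level of 27.7 per kb (percentile 80.5), was centred 2.03 kb downstream of its canonical start, and the other 11 had counts from 1.20 to 12.4. The domain as a whole held 144 regions, of which the 4 genes with a region accounted for 28.0% of the summed counts.

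**Figure D3:**
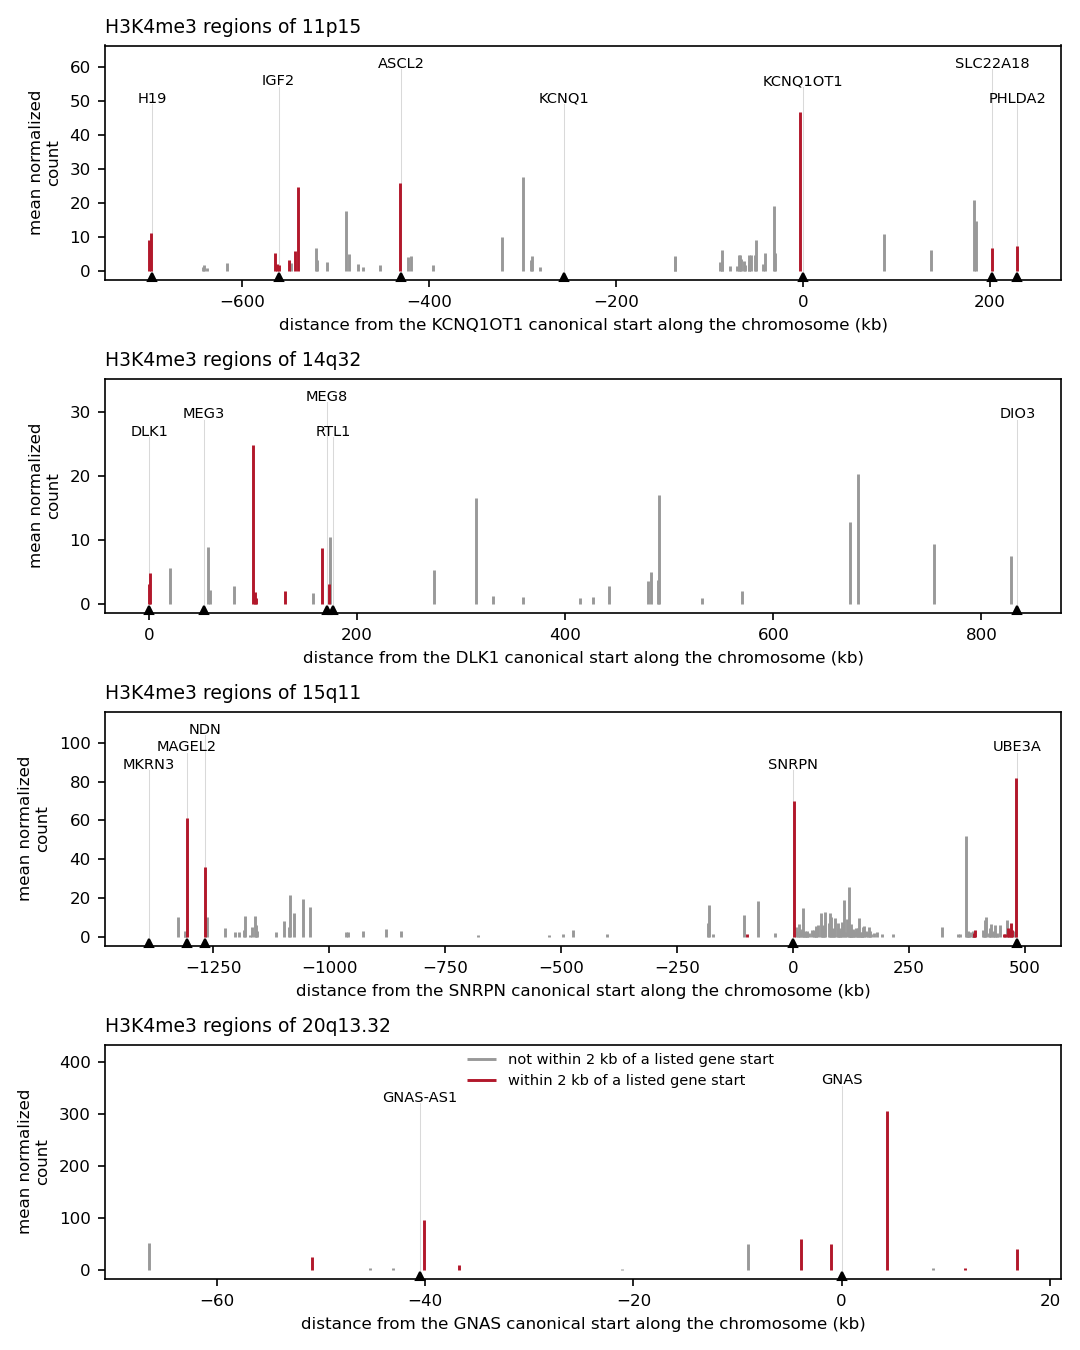
Mean normalized count of every H3K4me3 region in 4 imprinted domains against distance along the chromosome (kb) from the canonical start of KCNQ1OT1, DLK1, SNRPN or GNAS. Red lines are regions within 2 kb of a start site of an imprinted gene in the list, grey lines are other regions, and triangles mark canonical starts. Most of the signal of 20q13.32 is red (83.9% of the summed counts), against 25.7% in 14q32, 28.0% in 15q11 and 37.2% in 11p15.

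In the 11p15 domain 6 of 7 genes had a region, and all of their levels lay below the median of all genes. IGF2, the fetal growth factor, had a promoter value of 24.7 counts (14.003 per kb), but that region lay over the start of INS, the insulin gene, 884 bp from the nearest IGF2 start. The 5 other regions near IGF2 start sites had counts of 1.63 to 5.89. H19, the noncoding RNA expressed from the maternal copy, had 2 regions with counts of 11.1 and 8.87 (8.14 and 11.9 per kb). Its canonical start lay 1322 bp from the nearer of them. KCNQ1OT1, the paternally expressed antisense RNA that silences the centromeric part of the domain, had the highest count there, 46.6, spread over 4303 bp (10.8 per kb), and ended 402 bp from its canonical start. KCNQ1, a potassium channel gene in which that RNA lies and which is known for variants that alter diabetes risk, had no region within 2 kb of a start. ASCL2, a trophoblast transcription factor, had 25.6 counts (13.2 per kb). PHLDA2, a restrainer of placental growth, and SLC22A18, a membrane transporter, had narrow regions of 567 and 577 bp with counts of 7.28 and 6.62, each over the canonical start.

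At 14q32, the DLK1-MEG3 domain, all values were low. DLK1, a Notch-like transmembrane protein of beta and neuroendocrine cells, was flanked by 2 regions with counts of 4.79 and 3.09 (9.58 and 6.04 per kb). MEG3, the maternally expressed noncoding RNA of the domain, had a region of 2600 bp with a count of 24.8 (9.55 per kb) over 14 of its 34 start sites, centred 47.2 kb inside the gene from the canonical start, which itself lay 3357 bp from the nearest region. MEG8, a second maternally expressed noncoding RNA, had a count of 8.73 (6.45 per kb), which became 10.4 (10.7 per kb) when regions within 5 kb were allowed. RTL1, a retrotransposon-derived gene of placenta and muscle, and DIO3, which inactivates thyroid hormone, had no region, with the nearest ones at 2.45 and 4.41 kb.

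The remaining domains with a germline control element at a promoter held the widest promoter region of the imprinted genes. They also held a region of 500 bp, which is the usual width here (37.1% of all regions) and also the width at DLK1. PEG10, a retrotransposon-derived gene, and SGCE, which encodes epsilon-sarcoglycan, start back to back at 7q21 and shared a region of 6071 bp with a count of 136 (22.4 per kb) that covered both canonical starts and 47 of the 73 SGCE start sites. At 6q24, PLAGL1, a zinc finger transcription factor whose overexpression is known in transient neonatal diabetes, and the RNA HYMAI shared a region of 8007 bp with a count of 127 (15.9 per kb). A region of 6238 bp with 114 counts (18.3 per kb), centred 55.6 kb upstream, lay over 5 further PLAGL1 start sites. The PLAGL1 sequence printed above lies in it. PEG3, a zinc finger gene, and ZIM2 shared a region of 500 bp with a mean count of 1.12 (2.24 per kb), at percentile 1.03 of all genes with a region and 1029 bp from their canonical start.

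GRB10, an adaptor that dampens insulin receptor signalling, had 6 regions. The strongest had 61.3 counts (25.2 per kb) and lay 8.62 kb upstream of the canonical start, and the region over the canonical start had 5.96 counts (9.37 per kb). MEST, a hydrolase-like gene of fetal growth, had 49.6 counts (12.6 per kb) over its canonical start and a second region 5.91 kb upstream with 43.0 counts (17.4 per kb). COPG2, a coatomer subunit next to MEST, had 63.2 counts (21.8 per kb), and CPA4, a carboxypeptidase, had none, with the nearest region 18.05 kb from a start. DIRAS3, a growth-inhibiting Ras-like GTPase, had 22.8 counts in only 875 bp (26.04 per kb). NAP1L5, a nucleosome assembly protein gene with 1 start site, had 46.8 counts (17.2 per kb), and ZDBF2, a zinc finger gene, had 99.4 counts (21.4 per kb) over 4640 bp.

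Hosts and the genes nested in them differed at 20q11. NNAT, neuronatin, a small membrane protein that takes part in insulin secretion, had no region, and the nearest lay 2.81 kb away. BLCAP, within which it lies, had 90.5 counts (24.6 per kb). L3MBTL1, a chromatin-compacting protein gene at 20q13.12, had 31.7 counts (9.42 per kb) in a region over 20 of its 32 start sites, and 13.9 counts (7.59 per kb) over the canonical start. INPP5F, an inositol phosphatase, had its strongest region 93.7 kb inside the gene, with 30.3 counts (9.74 per kb) over 6 start sites. At 8q24, TRAPPC9, a vesicle trafficking subunit, had 77.1 counts (19.5 per kb) in a region 451 kb inside the gene over 1 annotated start, and 29.0 counts beside the canonical start. KCNK9, a potassium leak channel, had 20.96 counts in 634 bp, a level of 33.1 per kb at percentile 89.3.

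**Figure D4:**
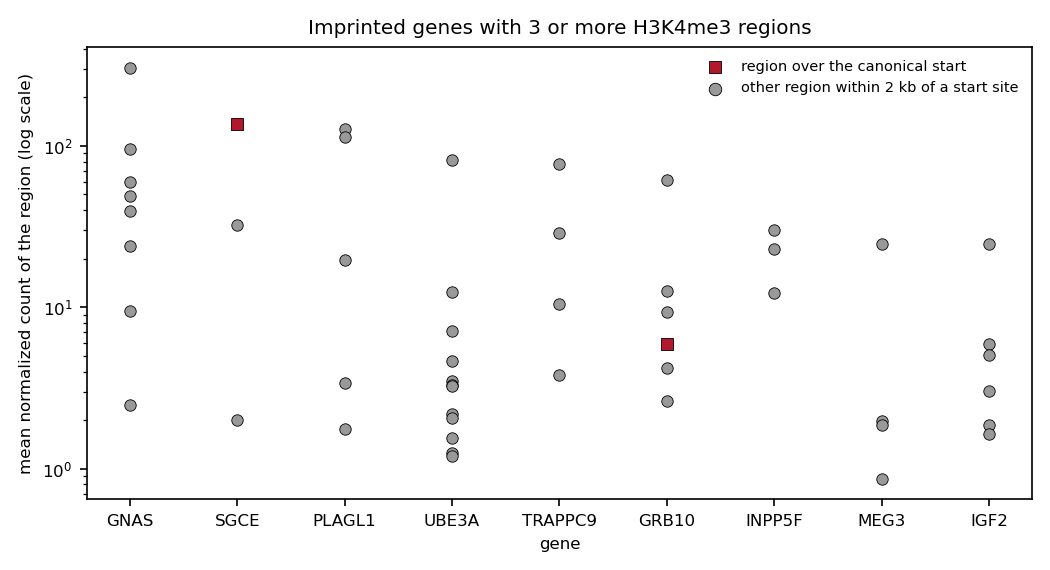
Mean normalized count (log scale) of each H3K4me3 region within 2 kb of a start site, for the imprinted genes with 3 or more such regions, ordered by their strongest region. Red squares are regions that contain the canonical start and grey circles are the others. Of these genes only SGCE and GRB10 have a square, at 136 and 5.96 counts.

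Canonical starts often lay outside every region. Of the 38 canonical starts, 17 lay inside a region, whether or not the strongest of the gene. A further 14 lay outside but within 2 kb of one, and 7 were farther away. The canonical starts of GRB10 and L3MBTL1 lay inside a weaker region of the gene. Over protein-coding genes 53.0% of canonical starts lay inside a region, and of those with a region within 2 kb 74.3% lay inside, against 16 of 26 (61.5%) for the imprinted protein-coding genes. Among lncRNA genes the share was 63.5%, and for the imprinted lncRNA genes it was 1 of 5. This share went with base composition. For protein-coding genes it was 56.25% where the 300 bp around the start held under 40% GC. It rose to 86.4% at 50 to 60% GC and 89.9% at 60 to 70%, and fell to 66.8% at 70 to 80% and 19.7% at 80% or over. For the imprinted genes, coding and lncRNA together, it was 7 of 9, 7 of 14 and 1 of 4 in the 3 classes from 60% GC up. The numbers per class are small, and what part base composition had in this was not tested.

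In 7 imprinted genes the canonical start fell in a gap between a pair of regions, each of which reached within 1 kb of it. These were PLAGL1, HYMAI, TRAPPC9, INPP5F, DLK1, UBE3A and GNAS. The gaps had a median GC content of 76.1% and the flanking regions 47.6%, and the gap was the richer in all 7 (PLAGL1 and HYMAI share theirs). Over protein-coding genes the same arrangement was found at 1686 starts (8.42%), with medians of 76.5% and 52.5%, and the gap was the richer in 1674. A pair of windows from such gaps is printed to show how dense their CpG sites are, again in capitals. They were chosen after the values were seen.
INPP5F, chr10:119726246-119726545, plus strand: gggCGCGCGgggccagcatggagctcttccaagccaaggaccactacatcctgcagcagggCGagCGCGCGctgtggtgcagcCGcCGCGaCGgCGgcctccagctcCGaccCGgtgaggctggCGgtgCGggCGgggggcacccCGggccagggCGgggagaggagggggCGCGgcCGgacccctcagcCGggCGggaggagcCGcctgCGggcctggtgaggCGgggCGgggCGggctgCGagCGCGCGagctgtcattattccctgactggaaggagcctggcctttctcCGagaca
PLAGL1, chr6:144008210-144008509, minus strand: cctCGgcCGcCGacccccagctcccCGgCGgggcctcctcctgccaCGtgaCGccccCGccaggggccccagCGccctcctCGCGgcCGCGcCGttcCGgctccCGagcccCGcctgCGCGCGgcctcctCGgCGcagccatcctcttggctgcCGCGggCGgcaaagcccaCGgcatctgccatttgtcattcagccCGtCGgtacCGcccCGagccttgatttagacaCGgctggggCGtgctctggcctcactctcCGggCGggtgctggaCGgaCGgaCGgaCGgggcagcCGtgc

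The INPP5F gap window held 34 CpG sites and overlapped no region, and the PLAGL1 gap window held 39 and reached with its end into a region of 19.5 counts. The window of INPP5F printed earlier, from within the gene, held 9.

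**Figure D5:**
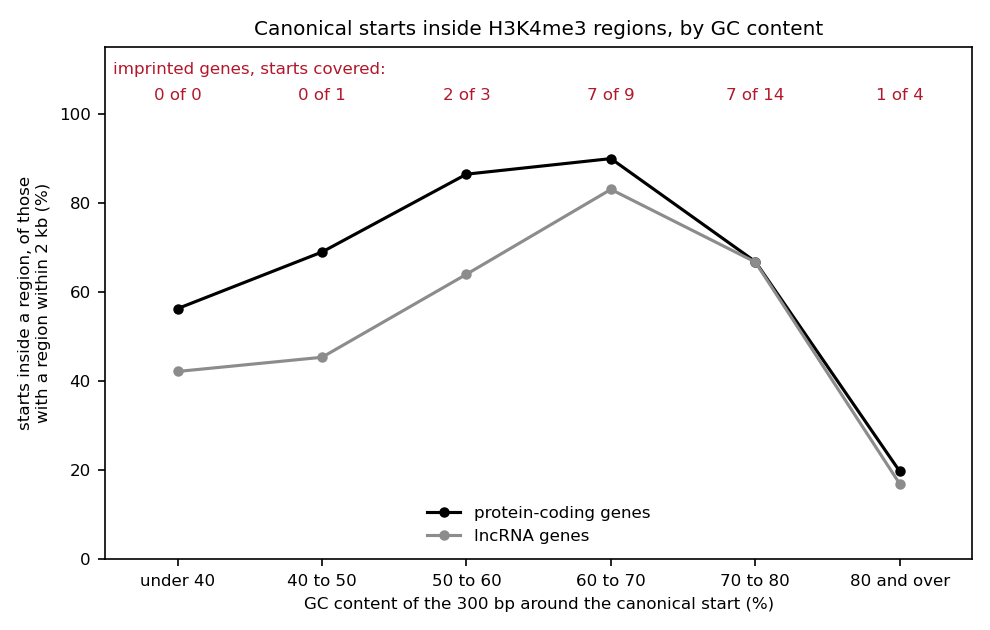
Share of canonical starts that lie inside an H3K4me3 region, among those with a region within 2 kb (%), against the GC content of the 300 bp around the start, for protein-coding and lncRNA genes. Red figures give the imprinted genes inside a region in each class. For protein-coding genes the share rises to 89.9% at 60 to 70% GC and falls to 19.7% at 80% or over.

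The core motif of ZFP57, TGCCGC, was searched on both strands (GCGGCA on the other). It occurred in 21 of the 51 RefSeq windows of imprinted genes (41.2%) and in 16.7% of all 35116 windows. Imprinted windows held more CpG sites, and among windows with at least 18 of them it occurred in 17 of 30 (56.7%) against 29.7% of all. Of the sequences printed above, MEST held it 3 times and SNRPN, NAP1L5, DIRAS3 and the PLAGL1 gap window 2 times each, and it was not in the GNAS, L3MBTL1, INPP5F and upstream PLAGL1 windows. Of the 29 promoter regions, 20 (69.0%) held it, against 46.3% of the 18774 promoter regions of all genes and 57.1% of those of protein-coding genes. The regions of imprinted genes were also wider, with a median over genes of 2926 bp against 2137 bp for all genes. The windows of a gene overlap or repeat, and a match describes letters only.

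Genes that neighbour the listed ones within or beside the same domains had a region in 43 of 48 cases (89.6%). They lie outside the fixed list but include imprinted genes, so they are not a non-imprinted comparison. The shares were 75.3% for all protein-coding genes and 38.2% for all lncRNA genes. The median level of the neighbours was 14.003 per kb, with 4 of them above the upper quartile of all genes and 15 below the lower quartile. The highest levels were at DDC (43.6 per kb), the aromatic amino acid decarboxylase gene next to GRB10, at IFT52 (38.2 per kb), a ciliary transport gene in the neighbourhood of L3MBTL1, and at NAP1L4 (26.9 per kb), a nucleosome assembly protein gene in 11p15. No region was found for TSGA13, NPAP1, TH, TRPM5 and OSBPL5, of which TH, TRPM5 and OSBPL5 lie in 11p15. The neighbours share some promoter regions with the imprinted genes, such as SNURF with SNRPN, INS with IGF2, MIMT1 with PEG3 and MESTIT1 with MEST. These regions count in both groups.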

How the data were processed

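MINT-ChIP for H3K4me3 was run on EndoC-βH3 cells, 4 samples kept non-senescent and 4 made senescent, from 500000 cells each. According to the study's methods, the authors mapped the reads to hg38 (Bowtie2, SAMtools) and found peaks with HOMER. The authors compared the H3K4me3 samples with DESeq2, as the deposited table and the labels' list of tools show. How peaks were merged, reads counted and duplicates treated is not given in the sources used here. The deposited signal of a region is the authors' mean of DESeq2-normalized counts over all samples. The deposited table also holds the authors' own comparison of the states (log2 fold change, standard error, test statistic, p-values), which was not used. Depth per sample is unknown, and the mean counts sum to 1470677 over 97545 regions.

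Start sites of all transcripts came from GENCODE release 44, and a level is the mean count divided by the width in kb. GC and CpG content came from the hg38 sequence, and promoter sequences from RefSeq (GRCh38.p14), in which 22 of 38 genes were found. All imprinted genes are named, and of the neighbours and the imprint maintenance factors those with the 3 highest levels and those without a region. Sequences were to come from the strongest promoter of up to 8 domains, those with a germline control element at a promoter first, and are the RefSeq windows over the highest count. The genes and lists were chosen with earlier results of these data known. The assignment of regions was tested on simulated data. Alternatives were windows of 1 and 5 kb, basic transcripts, a 100 bp overlap, the nearest region, a mean count of at least 10, no division by width and protein-coding genes as background. Python 3.11.15, numpy 2.4.6, pandas 2.3.3, pysam 0.24.0 and matplotlib 3.10.9 were used.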

Additional observations from a re-analysis of the deposited data

How the results depend on the processing

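Over the 6 alternatives tried for it, the number of imprinted genes with a promoter region lay between 26 and 35 (32 as reported), and over 8 alternatives the number above the median of all genes lay between 12 and 18 (15 as reported). The median level was 16.5 per kb with a window of 1 kb, 15.7 with the nearest region and 18.4 with regions of at least 10 mean counts, and 46.7 counts when not divided by width. The median CpG ratio was 0.544 with 1 kb, 0.512 with 5 kb, 0.556 with the nearest region and 0.544 with at least 10 mean counts. By construction a 1 kb window left PEG3 and ZIM2 without a region, and a 5 kb window gave regions to NNAT, RTL1 and DIO3, that of NNAT being the BLCAP region, and moved MEG8 from 6.45 to 10.7 per kb. The nearest region gave IGF2 5.89 counts in place of 24.7, DLK1 3.09 and HYMAI 19.5, and basic transcripts gave TRAPPC9 29.0 in place of 77.1.

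No paired analysis was possible because the deposited table has no values per sample and no sample was left out for the same reason. The depth behind a low count such as that of PEG3 is unknown. A missing region does not show that H3K4me3 is absent.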

Other observations

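Of 18 genes known to set or keep imprints, all protein-coding, 12 had a promoter region (66.7%), against 75.3% of all protein-coding genes. The median level of these 12 was 20.4 per kb. It was 18.99 per kb over protein-coding genes with a region and 17.0 over all genes with a region. The highest levels were at ARID4B (27.4 per kb) and ARID4A (23.98 per kb), chromatin regulators known from the imprinting of the SNRPN domain in mice, and at SMCHD1 (22.01 per kb), a structural chromatin protein. No region was found for ZFP57, DNMT3L, NLRP5, NLRP7, PADI6 and KHDC3L, several of which are known from the egg and early embryo.

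Several of the stronger regions inside the domains lay away from the start sites of the listed imprinted genes. They are named here after their values were seen. At 15q11 a region of 2918 bp with 52.1 counts lay on chromosome 15 from 25326136 to 25329054, with no annotated gene start within 2 kb for which it was the strongest region, and the promoter region of SNHG14, the host RNA of the SNORD116 cluster, had 25.5 counts. At 20q13.32 regions of 50.9 and 49.5 counts lay upstream of the canonical GNAS start, the latter downstream of other start sites of the gene. At 8q24 the promoter region of PEG13, a noncoding RNA within TRAPPC9, had 59.2 counts, and at 11p15 that of CDKN1C, a cyclin-dependent kinase inhibitor, had 20.8 counts.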
